A study of Mus musculus with 8 samples.

Results

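Polycomb group proteins keep genes silent in 2 kinds of complex, and 10 of their genes were examined here in undifferentiated spermatogonia, the pool of male germ cells from which sperm production is renewed. The genes were chosen by name (Bmi1, Ring1, Rnf2, Pcgf6, Cbx2, Scml2, Ezh1, Ezh2, Eed and Suz12), and all 10 had a row among the 14853 genes of the authors' deposited table. Only Bmi1 passed the authors' test. Its transcript was 1.22-fold higher in CreER/flox than in CreER/+ samples (log2 fold change 0.29, SE 0.07, adjusted p 0.00643 by the Wald test of DESeq2 in the authors' deposited table).

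RNA sequencing compared 4 samples of genotype Tert CreER/flox, titled TERT-del, with 4 samples of genotype Tert CreER/+, titled TERT-hetero. Every mouse was C57BL/6, 8 to 12 weeks old, received tamoxifen, and carried CreER at 1 of its Tert alleles and a Rosa-lsl-tdTomato reporter. Tert encodes the catalytic subunit of telomerase, CreER is a Cre recombinase that tamoxifen switches on, and tdTomato is a red fluorescent protein made once Cre has removed its stop cassette. The sort, on day 7 after the tamoxifen injection, took MCAM-high, KIT-negative, tdTomato-positive cells. Since CreER sits at Tert, the cells sorted in both groups were those in which the Tert-linked Cre had been active, and no group with an untouched Tert locus entered the comparison. Whether the CreER allele still makes telomerase, and whether the samples came from separate animals, is not stated in the labels. The p-values measure the spread between these samples, which may be technical.

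All values are those of the authors' comparison, taken as CreER/flox over CreER/+ from the table's name, which sets flox against WT. Values per library were not used here, so no range of single samples stands beside a fold change. Depth is given as each gene's normalized count averaged over all libraries. For Tert itself the authors' deposited table gave 0.29 on the log2 scale (SE 0.26, adjusted p 0.595, mean count 98.0), which checks neither the labels nor the sign, since the deleted part of the gene is not stated. In RNA from sorted populations, fewer cells of a type and less RNA per cell cannot be told apart.

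Polycomb repressive complex 1 (PRC1) is built on a RING heterodimer, in which RNF2 or RING1 pairs with a PCGF protein such as BMI1 and attaches ubiquitin to a histone tail. Polycomb repressive complex 2 (PRC2) consists of EZH2 or EZH1 with EED and SUZ12 and methylates another histone tail, a mark that the CBX proteins of canonical PRC1 read. In the testis, BMI1 is known from undifferentiated spermatogonia, SCML2 is a germline PRC1 partner that holds somatic genes silent, and PRC2 is needed for spermatogenesis to proceed.

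Promoter sequence is shown for the 3 genes of smallest p, Bmi1, Rnf2 and Eed. The windows are the 250 bases before the annotated start in RefSeq, build GRCm38.p6, written 5′ to 3′ on the gene's strand. Capitals mark matches to the motifs that were searched, on either strand. These were the E-box CACGTG, the GC box GGGCGG, the CCAAT box CCAAT, the TATA box TATAAA, the ETS motif CCGGAAG and the E2F motifs TTTCCCGC and TTTGGCGC.
Bmi1, chr2:18676768-18677017, + strand: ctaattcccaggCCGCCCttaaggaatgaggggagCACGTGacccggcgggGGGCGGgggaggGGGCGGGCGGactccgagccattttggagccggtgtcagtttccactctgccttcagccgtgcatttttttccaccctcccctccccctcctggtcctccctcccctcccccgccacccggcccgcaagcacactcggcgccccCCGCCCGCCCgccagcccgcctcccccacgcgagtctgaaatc
Rnf2, chr1:151500992-151501241, - strand: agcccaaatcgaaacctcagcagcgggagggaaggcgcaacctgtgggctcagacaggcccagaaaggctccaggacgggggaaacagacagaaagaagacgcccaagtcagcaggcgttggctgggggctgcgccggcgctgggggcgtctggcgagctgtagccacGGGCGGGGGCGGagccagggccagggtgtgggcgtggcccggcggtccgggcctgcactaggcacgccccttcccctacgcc
Eed, chr7:89980977-89981226, - strand: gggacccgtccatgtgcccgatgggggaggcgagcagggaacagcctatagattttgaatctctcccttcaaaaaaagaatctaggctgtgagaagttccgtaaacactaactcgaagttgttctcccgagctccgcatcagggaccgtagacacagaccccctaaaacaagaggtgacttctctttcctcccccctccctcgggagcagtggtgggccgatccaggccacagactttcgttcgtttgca
The Bmi1 window held 6 matches to the GC box, some of which overlap each other, and 1 E-box, which was the only E-box among the 9 members with a window. Rnf2 held 2 GC boxes in a row, and Eed held none of the motifs. The GC box was present in 5 of the 9 member windows and in 56.4% of the windows of 11639 genes of the table, and the E-box in 8.66% of them. The CCAAT box occurred in 2 of the 9, Ezh2 and Suz12, against 37.5% of the table's genes, and an E2F motif in Suz12 alone, against 2.48%. The ETS and TATA motifs were in no member window, against 13.1% and 6.63% of the table's genes. Bmi1 and Rnf2 both had 70.4% G and C in the window, and Eed had 54.4%. The windows of Ezh2 and Pcgf6 overlap the gene coordinates given below, and that of Scml2 lies inside them, so these windows do not precede the outermost start of the gene. The motif matches are a description of these letters and were not tested for binding.

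Among the PRC1 genes, the catalytic core was examined first. Bmi1, with Entrez ID 12151, lies on chromosome 2 at 18677018 to 18686629 (GRCm38), and the authors' deposited table gives it a mean count of 1637. Its 95% interval ran from a fold of 1.10 to 1.35, and by p it ranked 206 of 14853 genes, or 67 among those above 0. In all, 1 of the 10 members was called, in the higher direction, where 5.36% of all genes were called (1.94% higher and 3.42% lower). A single gene in 10 does not set the members apart from that background.

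Bmi1 no longer passed with a t distribution of 6 degrees of freedom (adjusted p 0.439), with the width of the central statistics divided out (adjusted p 0.504) or once a trend of fold changes with the length, GC content and mean count of transcripts was removed (adjusted p 0.348). Under the last of these its log2 fold change was 0.14. The first and second of these settings left 0 and 5 calls in the whole table, none of them in any gene list described here. Commd3, the gene that ends 786 bases before Bmi1 on chromosome 2 and was named for its position after the values were seen, stood at 0.11 on that scale (adjusted p 0.789, SE 0.16) in the authors' deposited table.

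Rnf2, which encodes the main ubiquitin ligase of PRC1 (chromosome 1, 151469398 to 151500991), stood close to Bmi1 in size. Its fold was 1.21 with an interval of 1.06 to 1.39 (log2 fold change 0.28, SE 0.10, mean count 664), and it missed the threshold at an adjusted p of 0.0725 in the authors' deposited table. Ring1, the alternative ligase (chromosome 17, 34020792 to 34024680), had a mean count of 45.4 and stood at -0.21 (adjusted p 0.796, SE 0.33) in the authors' deposited table. Its interval covers folds of 0.55 to 1.36, so a change of the size seen in Rnf2 was not detectable in Ring1 at this depth. Rnf2 minus Ring1 came to 0.49 on the log2 scale, with an interval of -0.19 to 1.17 if the errors of the genes are independent, and to 0.22 (interval -0.47 to 0.90) with the length, GC and count trend removed.

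Pcgf6 belongs to a variant PRC1 that represses germline genes in embryonic stem cells (chromosome 19, 47033617 to 47050939). It had a fold of 1.04 with an interval of 0.89 to 1.22 at a mean count of 479 (adjusted p 0.837) in the authors' deposited table. Against its paralogue Bmi1, the difference of log2 fold change was 0.22 (Bmi1 minus Pcgf6, interval -0.046 to 0.49), so these data do not separate them. Pcgf2, the PCGF paralogue closest to Bmi1, stood at -0.16 (adjusted p 0.646, SE 0.17) in the authors' deposited table. Bmi1 minus Pcgf2 was 0.45 with an interval of 0.096 to 0.80. It was 0.27 with the trend removed, and its interval of -0.088 to 0.62 then included 0. Pcgf2 was named as the partner of Bmi1 in this pair.

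The chromodomain protein gene Cbx2 (chromosome 11, 119023019 to 119031275) had a fold of 0.98 with an interval of 0.84 to 1.14 (mean count 803, adjusted p 0.924) in the authors' deposited table. A long non-coding RNA gene overlaps Cbx2 by 821 bases and another overlaps Ezh2 by 62 bases, and reads there could count for either gene. Scml2 (chromosome X, 161082525 to 161258218) was the member of highest mean count, 2547, and had a fold of 1.05 with an interval of 0.95 to 1.17 (adjusted p 0.661) in the authors' deposited table. Both of these intervals include a fold of 1. They end below the 1.22-fold estimate of Bmi1 but overlap its interval of 1.10 to 1.35. The difference of either gene from Bmi1 was not computed.

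**Figure D1:**
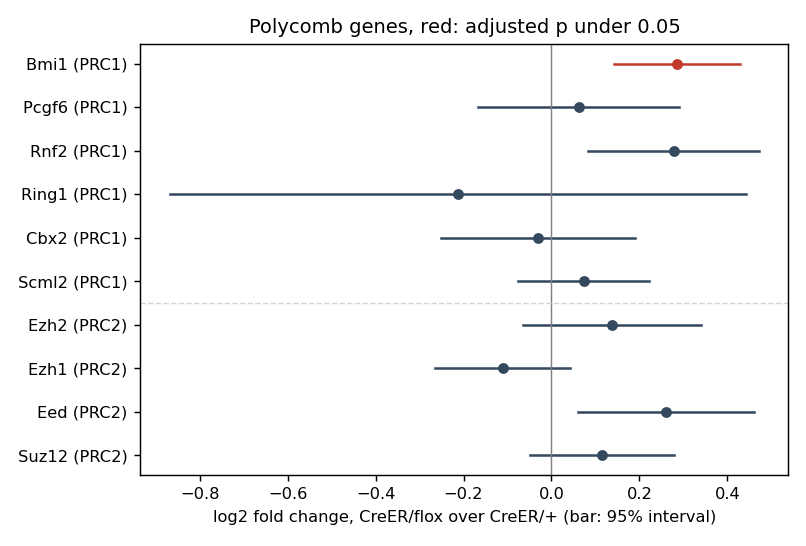
Log2 fold change of CreER/flox over CreER/+ (horizontal axis) for the 10 Polycomb genes, with PRC1 genes above and PRC2 genes below the dashed line. Points are the fitted values, bars their 95% intervals, and red marks an adjusted p under 0.05; the intervals of Bmi1, Rnf2 and Eed lie above 0, and Ring1 has the widest bar.

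Of the PRC2 genes, none passed. Eed encodes the subunit that binds the methyl mark and activates the enzyme (chromosome 7, 89954654 to 89980976). It had a fold of 1.20 with an interval of 1.04 to 1.38 (adjusted p 0.109, log2 fold change 0.26, SE 0.10, mean count 1020) in the authors' deposited table. Suz12, the scaffold subunit (chromosome 11, 79993106 to 80034123), had a fold of 1.08 with an interval of 0.97 to 1.21 (adjusted p 0.475, mean count 1383) in the authors' deposited table.

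The paralogous methyltransferase genes had estimates on either side of 0. Ezh2 (chromosome 6, 47530274 to 47595270), the form known from dividing cells, had a fold of 1.10 with an interval of 0.96 to 1.27 at a mean count of 495 (adjusted p 0.492) in the authors' deposited table. Ezh1 (chromosome 11, 101191115 to 101226463), the form known from resting cells, had a fold of 0.93 with an interval of 0.83 to 1.03 at a mean count of 1311 (adjusted p 0.459) in the authors' deposited table. Ezh2 minus Ezh1 was 0.25 on the log2 scale, with an interval of -0.0048 to 0.50.

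As a set, 7 of the 10 members lay above 0, and their median log2 fold change was 0.09; of all genes 50.1% lay above 0, and the median was 0.00071. Among the 3728 genes whose mean counts fall between those of Pcgf6 and Scml2, the range that holds every member but Ring1, 61.2% lay above 0 and the median was 0.04. At an unadjusted p under 0.05 there were 3 members, all above 0 (Bmi1, Rnf2 and Eed). In the higher direction alone that p was reached by 9.15% of all genes and 14.8% of the genes in that range of counts. In either direction it was reached by 19.7% of all genes. Of the genes in that range, 2.76% were called higher. The SEs of the members lay between 0.92 and 1.19 times the median SE of the 500 genes nearest to each in mean count.

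**Figure D2:**
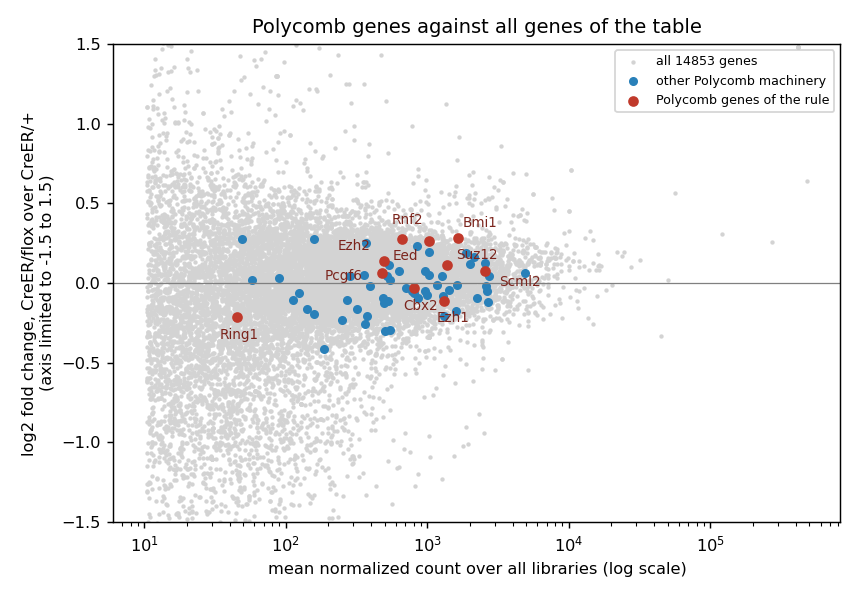
Log2 fold change of CreER/flox over CreER/+ (vertical axis, shown from -1.5 to 1.5) against the mean normalized count over all libraries (horizontal axis, log scale). Grey points are the 14853 genes of the table, blue points other Polycomb machinery and red points the 10 Polycomb genes; apart from Ring1, at a mean count of 45.4, the red points lie between mean counts of 479 and 2547.

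The sign of the members went with the base composition of their transcripts. The 3 members below 0 were those whose longest annotated transcript was richest in G and C, with 51.2% in Ezh1, 56.9% in Ring1 and 57.6% in Cbx2. The 7 above 0 ranged from 39.5% in Rnf2 and 40.2% in Bmi1 to 47.8% in Eed. Protein-coding genes in the range of mean counts that holds every member but Ring1 showed the same order. Those under 45% had a median log2 fold change of 0.10, with 5.22% of 1150 genes called higher and 1.04% called lower. Those from 45% to 50%, where Eed falls, had a median of 0.051, with 2.06% of 1069 genes called higher and 1.31% called lower. Those over 50% had a median of -0.014, with 0.968% of 1446 genes called higher and 3.80% called lower. With the trend removed, the median of the 10 members was 0.012, Rnf2 stood at 0.14 and Eed at 0.15, and none of the 10 passed. The estimates of Pcgf6 and Scml2 then lay below 0, at -0.021 and -0.029, and that of Cbx2 above 0, at 0.014. What part base composition has in the Bmi1 result was not tested beyond this removal.

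How abundant the transcripts of each complex were was read from the mean counts, divided by the length of the longest transcript annotated in GENCODE M21. These are levels over all libraries, with no error of their own, and they depend on which transcript the cells use. Paralogues that are not members were named here for their family, after their values were seen. Within the PCGF family Bmi1 was highest, at 456 mean counts per kb, ahead of Pcgf6 at 169, Pcgf5 at 150, Pcgf3 at 133, Pcgf2 at 56.6 and Pcgf1 at 53.3. Bmi1 made up 44.8% of the PCGF total per kb, and 67.8% when the median length of coding transcripts was used, a setting added after the data were seen. For Bmi1 that median was 617 bases, against 3594 for its longest transcript, so its share depends strongly on the length taken. Bmi1 was highest by both lengths. With the median coding length Pcgf5, at 695 per kb, lay above Pcgf6, at 222, so the order of these 2 genes was not settled. Rnf2 had a level of 207 per kb and Ring1 one of 17.8, a ratio of 11.7, or 26.9 with the median coding length.

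Scml2 was the highest of its family at 526 mean counts per kb, 1.86 times the level of Scmh1. With the median coding length Scml2 was still highest, at 729 per kb, but Sfmbt2 came close at 680, above Scmh1 at 440. Eed had a level of 493 per kb and Suz12 one of 316. Ezh1 stood at 312 per kb and Ezh2 at 177, a ratio of 1.76, or 1.51 with the median coding length. Of the CBX genes described here, Cbx2 had the highest level at 211 per kb, against 44.2 for Cbx8, 41.3 for Cbx7 and 11.3 for Cbx6. Cbx2 stood at 5.11 times Cbx7 by the longest transcript and at 0.60 times by the median coding length, so the order of these CBX genes was not settled.

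**Figure D3:**
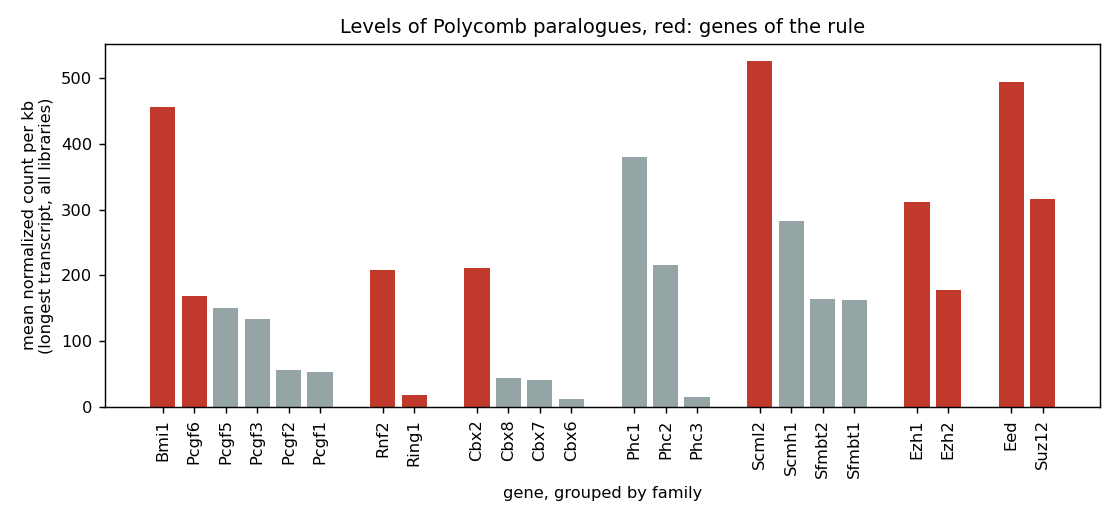
Mean normalized count over all libraries per kb of the longest transcript (vertical axis, from 0) for Polycomb paralogues grouped by family, with the 10 genes of this account in red and the others in grey. Bmi1 stands at 456 in the PCGF family, and Ring1 at 17.8 beside Rnf2 at 207; the mean counts carry no error bars.

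The rest of the Polycomb machinery was described from lists of subunits, their partners and genes that oppose them. With the 10 members, 64 genes were described, all with a row in the table, and 29 of them lay above 0. Their median log2 fold change was -0.018. Bmi1 was the 1 gene of the 64 called, in the higher direction, where 5.36% of all genes were called. At an unadjusted p under 0.05 there were 12 of the 64, 7 higher and 5 lower, against 19.7% of all genes.

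The canonical PRC1 list without the members had 3 of 10 genes above 0, a median of -0.09 and none called. It was drawn widely and also held Sfmbt1 (0.04, SE 0.08) and Sfmbt2 (-0.08, SE 0.07), named for their family, which are not core PRC1 subunits. Phc1, which encodes a polymerising PRC1 subunit, stood at -0.18 (adjusted p 0.237, SE 0.09) in the authors' deposited table. Cbx7, a chromodomain gene, stood at -0.23 (adjusted p 0.324, SE 0.13) in the authors' deposited table.

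Variant PRC1 subunits had 9 of 18 above 0, a median of 0.018 and none called. E2f6, a DNA-binding repressor of the PCGF6 complex, stood at 0.23 (adjusted p 0.0709, SE 0.08) in the authors' deposited table. Auts2, a partner of the PCGF5 and PCGF3 complexes, stood at -0.21 (adjusted p 0.159, SE 0.09) in the authors' deposited table. Mga and Max, which join the PCGF6 complex and also belong to the MYC network, had values of 0.06 (SE 0.07) and 0.12 (SE 0.10) from the authors' deposited table and were named for that role after the values were seen.

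Histone-binding and accessory PRC2 genes had 6 of 11 above 0, a median of 0.017 and none called, and the median lay below 0, at -0.024, with the trend removed. Rbbp4, a histone chaperone subunit shared with other complexes, stood at 0.19 (adjusted p 0.190, SE 0.09) in the authors' deposited table. Mtf2, a PRC2 recruitment factor, stood at 0.16 (adjusted p 0.322, SE 0.09) in the authors' deposited table.

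Removal of ubiquitin from histones opposes PRC1, and the genes of the enzymes that do so were listed together with genes of their partners. Of these 12 genes, 2 were above 0 and 10 below, with a median of -0.10, and none was called in either direction. The deubiquitinase genes, named for that role after their values were seen, stood near 0. These were Bap1 (-0.04, SE 0.07), Mysm1 (-0.05, SE 0.11) and Usp16 (0.08, SE 0.10) of the authors' deposited table. Mbd6, a partner of the deubiquitinase BAP1, stood at -0.30 (adjusted p 0.0651, SE 0.11) in the authors' deposited table. Asxl3, of the ASXL family that activates BAP1, stood at -0.41 (adjusted p 0.108, SE 0.16) in the authors' deposited table. The median of this list was -0.07 with the length, GC and count trend removed, and its transcripts had a median length of 7201 bases, against 3398 for the 10 members.

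The family of demethylase genes that acts on the PRC2 mark, whose members need not all be active enzymes, had 2 of 3 above 0. Its median was 0.042 (0.13 with the trend removed), and none was called. Uty, the Y-linked paralogue, stood at 0.25 (adjusted p 0.207, SE 0.12) in the authors' deposited table. Kdm6a, its X-linked counterpart, stood at 0.04 (adjusted p 0.922, SE 0.15) in the authors' deposited table.

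**Figure D4:**
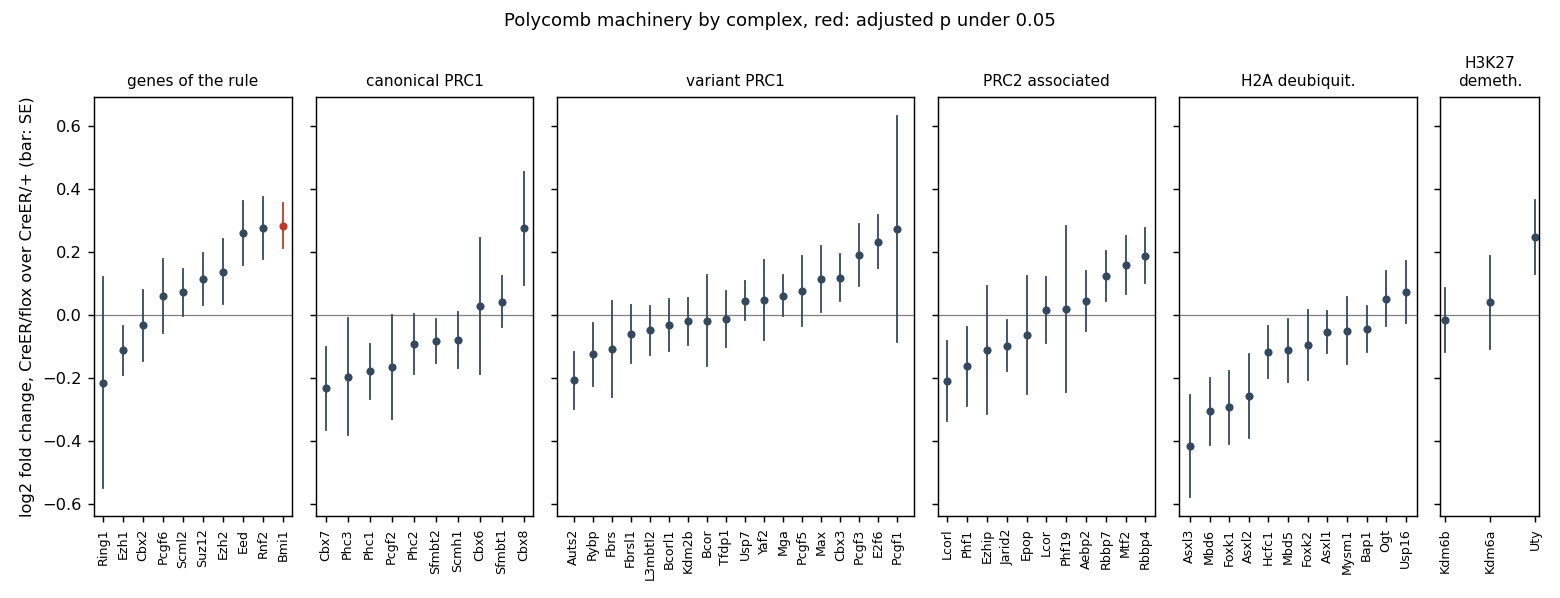
Log2 fold change of CreER/flox over CreER/+ (vertical axis) for 64 Polycomb genes in 6 panels by complex, sorted by value within each panel. Points are fitted values, bars 1 SE, and red marks an adjusted p under 0.05, which Bmi1 alone has; 10 of the 12 genes of the deubiquitination panel lie below 0.

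Genes known as Polycomb targets, mostly from other cells, were compared between the genotypes, and whether they are silenced in these cells was not measured. Of 41 Hox and Cdkn2 genes, 18 were measured, mostly at low counts (median 29.2). They had 11 members above 0, a median log2 fold change of 0.18 (0.27 with the trend removed) with a median SE of 0.40, and none called or at an unadjusted p under 0.05. The gene of smallest p in the list was Hoxa4, at -1.06 (adjusted p 0.277, SE 0.56) in the authors' deposited table, followed by Hoxc9, at 0.57 (adjusted p 0.292, SE 0.31) in the authors' deposited table. Cdkn2a, a cell cycle inhibitor locus that BMI1 is known to repress in several tissues, stood at -0.14 (SE 0.16, adjusted p 0.695, at 235 mean counts) in the authors' deposited table and was named for that role after its value was seen.

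Of 47 other developmental regulators known as Polycomb targets, 18 were measured, mostly at low counts (median 37.1, median SE 0.34). Of these, 11 lay above 0, where 50.1% of all genes did, with a median of 0.14. A single gene of the 18 was called, where 5.36% of all genes were, so the count does not set this list apart from that background. The called gene was Zic1, a zinc finger regulator of neural development, which rose 1.62-fold (adjusted p 0.000406, log2 fold change 0.70, SE 0.14, mean count 367) in the authors' deposited table. Zic1 passed with the trend removed as well (0.69, adjusted p 0.000487). It overlaps its neighbour Zic4 by 138 bases, where reads could count for either gene. Pax3, a neural crest and muscle regulator, stood just outside the threshold at 1.60 (SE 0.53, adjusted p 0.0503) with 14.4 mean counts in the authors' deposited table, and passed with the trend removed (adjusted p 0.0333).

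Germline genes that the PCGF6 complex silences in embryonic stem cells are expressed in spermatogonia, and all 18 were measured. Their median was 0.11, with 11 above 0 and 1 called, where 5.36% of all genes were called. The called gene was Dazl, an RNA-binding regulator of germ cells (0.23, adjusted p 0.00997, SE 0.06) in the authors' deposited table. With the trend removed Dazl stood at 0.024 (adjusted p 0.924) and the median of the list at -0.039, below 0, while Smc1b, a meiotic cohesin gene, was called lower at -0.22 (adjusted p 0.0459).

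Replication genes were set beside the PRC2 members because Ezh2, Eed and Suz12 are known to follow proliferation. The list was chosen with earlier results of these data known, so its values are a description only. All 20 lay above 0, where 50.1% of all genes did, with a median of 0.21, against 0.14 for Ezh2, 0.26 for Eed and 0.12 for Suz12. There were 4 called, all higher, where 1.94% of all genes were called higher. Among them were the cyclin gene Ccne1 (0.60, SE 0.19, adjusted p 0.0425) and the helicase gene Gins2 (0.57, adjusted p 0.0435, SE 0.19) in the authors' deposited table. Rfc4, a clamp loader gene (0.34, SE 0.10, adjusted p 0.0233), and Gins1, also of the helicase (0.51, SE 0.17, adjusted p 0.0404), were the others in the authors' deposited table. With the trend removed the median was 0.15, and Ccne1 (adjusted p 0.0462) and Gins2 (adjusted p 0.0231) still passed, while Rfc4 (adjusted p 0.422) and Gins1 (adjusted p 0.112) did not. In the annotation Rfc4 overlaps Eif4a2 by 185 bases, Gins2 overlaps Gse1 by 118 bases and Gins1 overlaps a pseudogene by 420 bases. The part of proliferation in the values of the PRC2 genes was not tested.

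**Figure D5:**
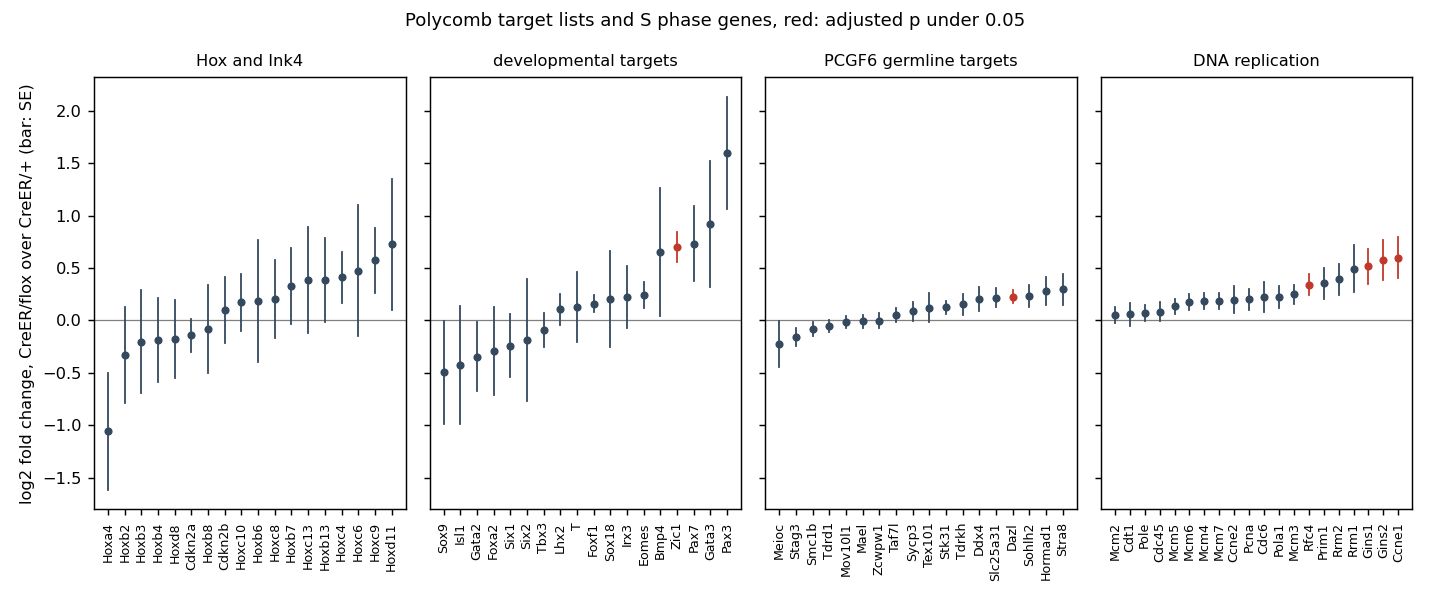
Log2 fold change of CreER/flox over CreER/+ (vertical axis) for the measured genes of 3 Polycomb target lists and of the replication list, sorted by value within each panel. Points are fitted values, bars 1 SE, and red marks an adjusted p under 0.05, as for Zic1 and Dazl; all 20 replication genes lie above 0, and the Hox panel has the wide bars of genes with low counts.

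Markers of other cells were read beside these values. All 20 spermatid markers lay below 0, with a median of -1.09, and 8 were called lower, where 3.42% of all genes were called lower. They were led by Odf1 of the sperm tail (-1.14, adjusted p 0.000125, SE 0.22) in the authors' deposited table. The other called ones were Spem1 (-1.47, SE 0.33), Tssk1 (-1.37, SE 0.33), Akap4 (-1.20, SE 0.40), Smcp (-1.12, SE 0.32), Tssk2 (-0.85, SE 0.27), Odf2 (-0.82, SE 0.26) and Dnajb3 (-0.75, SE 0.21) of the authors' deposited table. In the annotation Dnajb3 lies within genes of the Ugt1a cluster over 1017 bases, and a long non-coding RNA gene covers Smcp over 5208 bases, so reads there could count for either gene. With the trend removed 9 spermatid markers were called lower, Tnp1 and Tnp2 among them and Tssk2 (adjusted p 0.0600) not. In either direction, 364 of 13694 genes were called in that setting. The gate was set for spermatogonia, and the mean counts of these markers summed to 11734, with single genes between 21.8 and 2304. Among Sertoli cell markers 8 of 11 were measured, with a median of 0.011. Trf alone was called, at 0.62 (adjusted p 0.00255, SE 0.15) in the authors' deposited table. Myoid markers had 3 of 6 measured, of which Actg2 was called at -1.17 (adjusted p 0.0340, SE 0.37) in the authors' deposited table. These single calls stand beside 5.36% of all genes called in either direction. The Actg2 gene overlaps a long non-coding RNA gene by 4499 bases, and it did not pass with the trend removed (adjusted p 0.0598). None of the 5 endothelial, 5 erythroid, 1 leukocyte and 1 Leydig cell markers measured was called, with median log2 fold changes of 0.0048, 0.93, -0.14 and -0.47. These medians were 0.15, 0.94, 0.086 and -0.38 with the trend removed, so the sign of the leukocyte marker turned. Hba-a1 and Hba-a2 have identical deposited values (0.93, SE 1.32), which set the erythroid median. With identical rows counted once the erythroid list holds 4 genes. The markers of smallest p were Tek (-0.38, SE 0.24) and Vwf (-0.61, SE 0.51) of endothelium, Hbb-bt (1.07, SE 1.28) and Alas2 (-0.25, SE 0.35) of red cells, Cd68 (-0.14, SE 0.52) of macrophages and Star (-0.47, SE 0.33) of Leydig cells in the authors' deposited table. The part of carried-over RNA in the Polycomb values was not tested.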

How the data were processed

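Total RNA from sorted cells was made into libraries with a stranded low-input kit, per the labels' protocols. Per the submitters' processing notes, DESeq2, Bowtie, Bowtie2 (2.0.0-6), TopHat2 (2.0.4) and Trim Galore were used, with the builds mm10 and GRCm38. The read counter and its strand setting are not stated there. The deposited mean count is a signal that the authors normalized and averaged over all libraries. The log2 fold changes and SEs come from the authors' fit. The deposited test score equals the log2 fold change over its SE to within 2.58e-07. The deposited p-values matched a normal distribution of that score to within 0.424%, and the adjusted p-values a Benjamini-Hochberg adjustment over 14853 rows to within 0.426%. Every mean count was above 10, so no further filter was set, and total counts per library were not used here.

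The calls are those of the authors' fit, and no new fit to libraries was made. A gene counts as called at an adjusted p under 0.05, and 95% intervals are normal ones from the deposited SE. Symbols of 14828 rows and all coordinates came from RefSeq GRCm38.p6 through the Entrez ID, and promoters from the RefSeq table of the same build, which held 9 of the 10 members. Transcript lengths and GC content came from GENCODE M21 and were found for 93.8% of rows. The trend was a weighted quadratic surface fitted to 13694 protein-coding rows. The members and the 18 other gene lists were chosen with earlier results of these data known. Named are all 10 members, the called genes of each list or the 2 of smallest p, and Tert; genes named for a role, position or family, or as a partner in a pair, are marked as such. Eomes, Sox9 and Stra8 each stand in a pair of lists. A gene of the canonical PRC1 list is not reported here and enters none of its counts. The steps were tested on simulated data. The tools were matplotlib 3.10.9, scipy 1.17.1, numpy 2.4.6 and pandas 2.3.3 under Python 3.11.15.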

Additional observations from a re-analysis of the deposited data

How the results depend on the processing

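The count of 1 called Polycomb gene was 2 at an adjusted p under 0.1, where Rnf2 joined Bmi1 (adjusted p 0.0725). Of all 14853 genes, 1340 were called at that threshold. The count of Polycomb genes was 0 with a t distribution, with the null width of 1.45 divided out, and with the trend of length, GC content and mean count removed. Over the 64 genes of the wider machinery the count of 1 became 4 at an adjusted p under 0.1 and 0 under the same 3 settings. The adjusted p of Bmi1 was 0.439, 0.504 and 0.348 under these, and it passed at 0.01, with the adjustment limited to genes with mean counts of at least 100 or 50, with centring on the median, and with identical rows counted once, a setting added after the data were seen. Over all genes, the t distribution called 0 (2921 at an unadjusted p under 0.05 in the deposited test), the null width 5, and the trend removal 364 of 13694. Cbx2 (adjusted p 0.979), Pcgf6 (0.970) and Scml2 (0.926), uncalled as deposited, changed sign with the trend removed. With the trend removed, Bmi1 minus Pcgf2 moved to 0.27 and Rnf2 minus Ring1 to 0.22, both with intervals that include 0. Ring1, at a mean count of 45.4, was left out by both count minimums, and Auts2 had no length for the trend. No paired analysis was possible because the table holds no values per library, and the same holds for leaving out replicates and refitting with other tools. Low depth limits Ring1 among the members. Among the target lists it limits the Hox and Cdkn2 genes, at a median SE of 0.40, and the other developmental regulators, at a median SE of 0.34.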

Other observations

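Markers of the sorted cells themselves gave few differences. Of 16 genes of undifferentiated spermatogonia, the population in which BMI1 is known, 5 lay above 0, with a median log2 fold change of -0.06 and none called. Ret, the GDNF co-receptor gene, stood at -0.23 (SE 0.08, adjusted p 0.0798), and Zbtb16, a transcription factor gene of these cells, at -0.18 (adjusted p 0.0875, SE 0.07) in the authors' deposited table. The 6 genes of differentiating spermatogonia had 3 above 0, a median of -0.014 and none called. Dmrtb1 stood at -0.91 (SE 0.37, adjusted p 0.126) and Stra8, a retinoic acid response gene, at 0.30 (adjusted p 0.244, SE 0.15) in the authors' deposited table. The sorting marker Mcam, named for that role after its value was seen, stood at -0.03 (SE 0.07) with a mean count of 4854, and Kit, absent from the surface of the sorted cells, at -0.29 (SE 0.21) with a mean count of 93.1, both in the authors' deposited table.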
